A study of Rattus norvegicus with 24 samples.

Results

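The cytosolic ribosomal proteins are the proteins of the large and small subunits of the ribosome outside mitochondria. They were taken as all gene symbols of the count tables that begin with Rpl or Rps and a digit, or with Rplp and a digit, together with Rpsa, without the Rps6k kinases, Rps19bp1 and symbols marked as pseudogenes. Of 17055 symbols, 83 met this rule, 50 of the large and 33 of the small subunit. Of these, 77 had at least 10 counts in at least 3 libraries, 46 of the large and 31 of the small subunit, and all 77 were among the 9994 genes tested.

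The libraries came from PC12 cells, a rat line from a tumour of the adrenal chromaffin cells, at passages 18 to 20. One stable line carried human α1ACT, a transcription factor made from the mRNA of the calcium channel gene CACNA1A, in the expression plasmid pcDNA3. The other stable line carried the empty pcDNA3 vector. Both were grown in F-12K medium with horse and fetal bovine serum, with no treatment, and 3 biological replicates were sequenced per line at 6 h, 24 h, 3 d and 10 d, 24 libraries in all. Both lines share the cell type, the plasmid backbone and the medium. The sources used here do not say from which event the times count, what drives the transgene or whether a line is 1 clone. Medium was changed every few days. The line labels were not checked by the transgene, since the counts are per rat gene symbol. Total RNA was sequenced after removal of ribosomal RNA, so the RNA of the ribosome is not measured.

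The names of the deposited tables give the labelled line and time for 6 libraries and another for 18, of which 12 also differ in the line. Groups are those of the labels throughout. By the names, α1ACT at 6 h, 24 h, 3 d and 10 d would be P at 24H, P at 10D, Q11 at 24H and Q11 at 10D, and vector at 6 h, 24 h, 3 d and 10 d would be P at 6H, P at 3D, Q11 at 6H and Q11 at 3D. Each labelled difference of the lines is then a difference of times within one name, and labelled 24 h and 10 d hold all libraries named 3D and 10D. Line and time as the source of a difference cannot be told apart while labels and names differ. The groups that carry the same line and time in both are α1ACT at 10 d and vector at 6 h.

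Each library held 8679560 to 14486248 counts on genes. Of the reads that were assigned to a gene, ambiguous or outside genes, 47.8% to 52.9% lay outside. The chromaffin markers Th and Chga stood at 4760 to 8637 and 2136 to 3765 CPM, the counts of a gene scaled to a common library total. The chromaffin marker Dbh stood lower, at 27.2 to 49.7 CPM. Col1a2, Lum and Pdgfrb of fibroblasts, Sox10 of Schwann cells and Ptprc and Aif1 of immune cells had no count in any library. Other genes of these lists were counted. The summed lists came to 630 to 878 CPM for 7 fibroblast genes, 44.2 to 61.6 CPM for 6 Schwann cell genes and 0.956 to 3.70 CPM for 6 immune genes. The 5 epithelial genes summed to 526 to 1848 CPM, and the 13 chromaffin genes to 20467 to 30229 CPM. In bulk RNA, fewer cells of a type and less RNA per cell cannot be told apart.

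Ribosomal proteins coat and hold together the ribosomal RNA, and each ribosome carries one copy of nearly every member. Their mRNAs begin at a C followed by a stretch of pyrimidines, the 5′ terminal oligopyrimidine tract (TOP). Through it, mTOR and the binding protein LARP1 control their translation and stability, so that ribosome production follows nutrients and growth. Members made in excess of ribosome assembly are degraded, and some of them, with Rpl5 and Rpl11 foremost, bind the ubiquitin ligase Mdm2.

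The start sites of the genes that carry the results are shown first, since the tract at the start is the feature these mRNAs share. Each line gives 20 bases before and 20 bases from the annotated start, 5′ to 3′ on the gene's strand, from RefSeq (GRCr8). Capitals mark the longest run of C and T that begins with C within 10 bases of the start, where it is at least 5 bases long.
Rpl4: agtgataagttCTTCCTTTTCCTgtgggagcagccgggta
Rpl11: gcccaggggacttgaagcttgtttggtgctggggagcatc
Rplp1: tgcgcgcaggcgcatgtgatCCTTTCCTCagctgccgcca
Rplp0: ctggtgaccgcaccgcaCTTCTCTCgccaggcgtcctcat
Rpl23: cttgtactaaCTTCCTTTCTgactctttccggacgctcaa
Rps24: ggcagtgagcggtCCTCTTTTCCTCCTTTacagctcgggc
Rpl41: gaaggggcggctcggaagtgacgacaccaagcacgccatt
Rps27: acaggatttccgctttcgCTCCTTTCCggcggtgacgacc
Rps27l: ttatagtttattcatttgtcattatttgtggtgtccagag
Rpl22: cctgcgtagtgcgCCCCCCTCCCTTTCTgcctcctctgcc
The runs of Rpl4, Rps24 and Rpl22 are 12, 16 and 15 bases long. The windows of Rpl11, Rpl41 and Rps27l hold no run of 5. An annotated start can lie away from the start used in these cells, so a window with no run says only that these letters are not there.

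Over 67 promoters of 66 member symbols, 40 (59.7%) held a C-led run of at least 7 bases beginning within 10 bases of the start, against 2401 of 21851 protein-coding promoters. A start base C followed by at least 4 more pyrimidines was present in 35.8% of member promoters and in 2.52% of all. In the 300 bases around the start, on either strand, CCGGAAG (the core of an ETS site) was found in 29.9% of member promoters and in 10.7% of all. CTCGCGAG stood in 13.4% and 1.03%, and ANATGGCG, the core of a YY1 site, in 16.4% and 4.97%. GGGCGG, a GC box that CTCGCGAG and CCGGAAG do not contain, stood in 59.7% and 41.8%. TATAAA, with 11.9% and 13.0%, and the E box CACGTG, with 7.46% and 7.02%, were as frequent in member promoters as in all. These matches describe the letters and are no binding sites or causes.

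Members were counted over a wide range. The mean over the 24 libraries was 3.08 CPM for Rpl35a, the lowest of those kept, and 1871.2 CPM for Rplp0, the highest, with a median of 82.7 CPM. CPM is not per length, so it does not rank these mRNAs by abundance. The 5 most counted members held 35.4% of the summed member counts and the 10 most counted 53.4%. The 6 symbols not kept were Rpl3l, Rpl7a, Rpl8, Rplp2, Rps19 and Rps4y2. Of these, Rpl3l had 9 counts over all libraries, Rpl7a had 2, Rps19 had 10, Rplp2 had 166, and Rpl8 and Rps4y2 had none. Rpl7a, Rpl8, Rplp2 and Rps19 are proteins that every ribosome holds, so a low count here is not a low level. Ribosomal protein genes have many processed pseudogenes that are nearly identical to the parent. RefSeq names 902 loci as pseudogenes of 79 of the 83 members, with a median of 11 and up to 36 for Rps2, and reads that match several places may be lost or shared. The number of named copies did not follow the count of a member (Spearman's rho 0.00816 over members, which are no independent replicates). Within a group, the SD of log2 CPM had a median of 0.226 for the 15 members under 10 CPM and 0.0892 for the 22 at 300 CPM or more, so the differences given first are those of the well-counted members.

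The 83 symbols together took 1.45% to 2.17% of the counts of a library, and their share was higher at labelled 24 h and 10 d than at 6 h and 3 d in both lines. It was 1.53% ± 0.0799 in α1ACT and 1.50% ± 0.0589 in vector at 6 h, 1.90% ± 0.0894 in α1ACT and 1.85% ± 0.154 in vector at 24 h, 1.55% ± 0.0630 in α1ACT and 1.54% ± 0.0233 in vector at 3 d, and 2.13% ± 0.0323 in α1ACT and 1.83% ± 0.0952 in vector at 10 d (SD, n = 3 each). All 12 libraries of 24 h and 10 d lay at 1.73% or more, and all 12 of 6 h and 3 d at 1.62% or less. At 10 d the 3 α1ACT libraries lay above the 3 vector libraries. At the other times the lines overlapped. The share of a single library is known within 0.00667 to 0.00969 percentage points (the distance from the share to a bound of its 95% Wilson interval, counting error only), far less than the spread between replicates. Reads outside genes made up 49.6% at 6 h, 51.6% at 24 h, 49.9% at 3 d and 52.5% at 10 d in α1ACT. In vector they made up 48.7%, 50.4%, 48.8% and 50.9% at these times. These means were thus also higher at 24 h and 10 d than at 6 h and 3 d in both lines. Non-unique alignments per 100 other reads came to 81.5, 94.1, 88.3 and 99.5 in α1ACT at these times. In vector they came to 88.3, 87.1, 86.9 and 82.9. The part of either in the share of the ribosomal protein symbols was not tested.

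**Figure D1:**
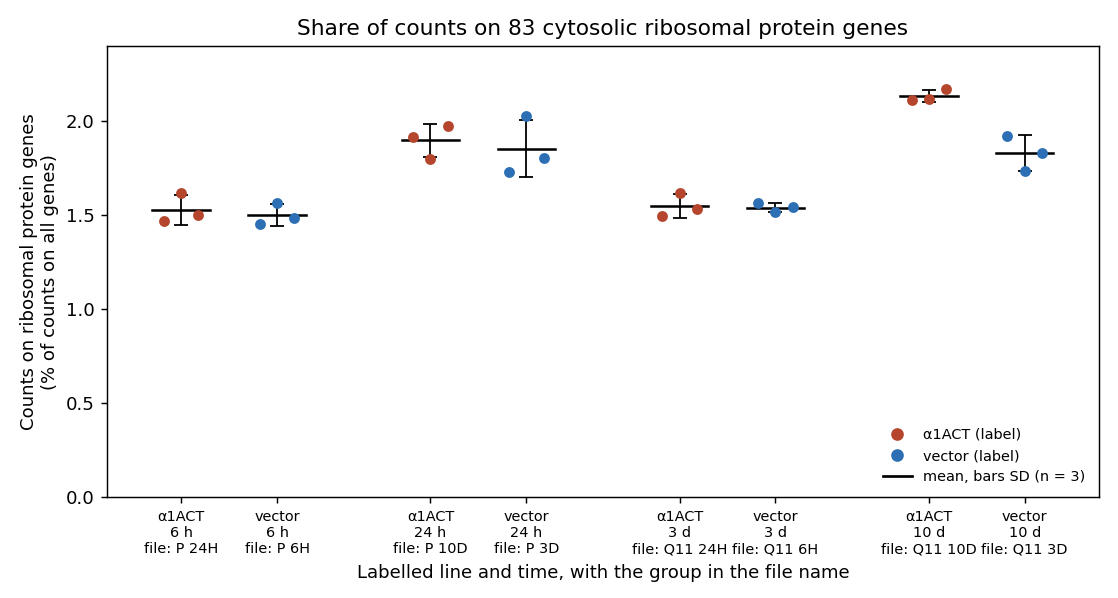
Share of all counts on genes (percent, axis from 0) that fell on the 83 ribosomal protein symbols, by labelled group with the group of the file name below it. Points are libraries and bars the mean ± SD of 3. The 24 h and 10 d libraries lie at 1.73% or more, the 6 h and 3 d libraries at 1.62% or less, and α1ACT at 10 d is highest at 2.13%.

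Most members rose at 24 h relative to 6 h and at 10 d relative to 3 d, in both lines and by a modest amount. By the file names the vector comparisons are P at 3D against 6H and Q11 at 3D against 6H, and those of α1ACT are P at 10D against 24H and Q11 at 10D against 24H. In α1ACT, 49 of 77 members were higher at 24 h than at 6 h and 0 lower (edgeR's quasi-likelihood test, Benjamini-Hochberg adjusted p under 0.05 over 9994 genes), with 21.7% of all tested genes higher and 22.4% lower. In vector, 45 were higher and 3 lower at 24 h, with 31.6% and 29.9% of all genes. At 10 d against 3 d, 54 members were higher and 0 lower in α1ACT, with 21.8% and 22.8% of all genes. In vector at 10 d against 3 d, 45 were higher and 1 lower, with 33.2% and 31.0% of all genes. The median log2 fold change of the 77 members was 0.29 at 24 h against 6 h in α1ACT, 0.30 in vector, 0.44 at 10 d against 3 d in α1ACT and 0.31 in vector. Those of all tested genes lay between -0.02 and 0.02. At 10 d against 3 d, 36 of 46 large and 18 of 31 small subunit members were higher in α1ACT, as were 28 large and 17 small subunit members in vector, so both subunits took part.

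The calls followed how well a member was counted. At 300 CPM or more, 22 of 22 members were higher at 10 d than at 3 d in α1ACT, where 38.2% of all genes at that level were higher. Under 10 CPM, 3 of 15 members were, where 9.45% of genes at that level were. Across both lines and both comparisons, 37 members were higher all 4 times, as were 777 of the 9994 genes tested. Another 6 were higher 3 times, 8 were higher 2 times and 11 were higher 1 time. The 15 never higher were Rpl9, Rpl34, Rpl35a, Rpl37, Rpl38, Rpl39, Rpl39l, Rps2, Rps4x, Rps13, Rps14, Rps20, Rps27a, Rps27l and Rps28, of which 4 had a mean of at least 30 CPM. A member's highest group mean was in α1ACT at 10 d for 44 of 77 members and in vector at 24 h for 17. Of the 9994 genes tested, 1531 were highest in α1ACT at 10 d and 1238 in vector at 24 h.

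**Figure D2:**
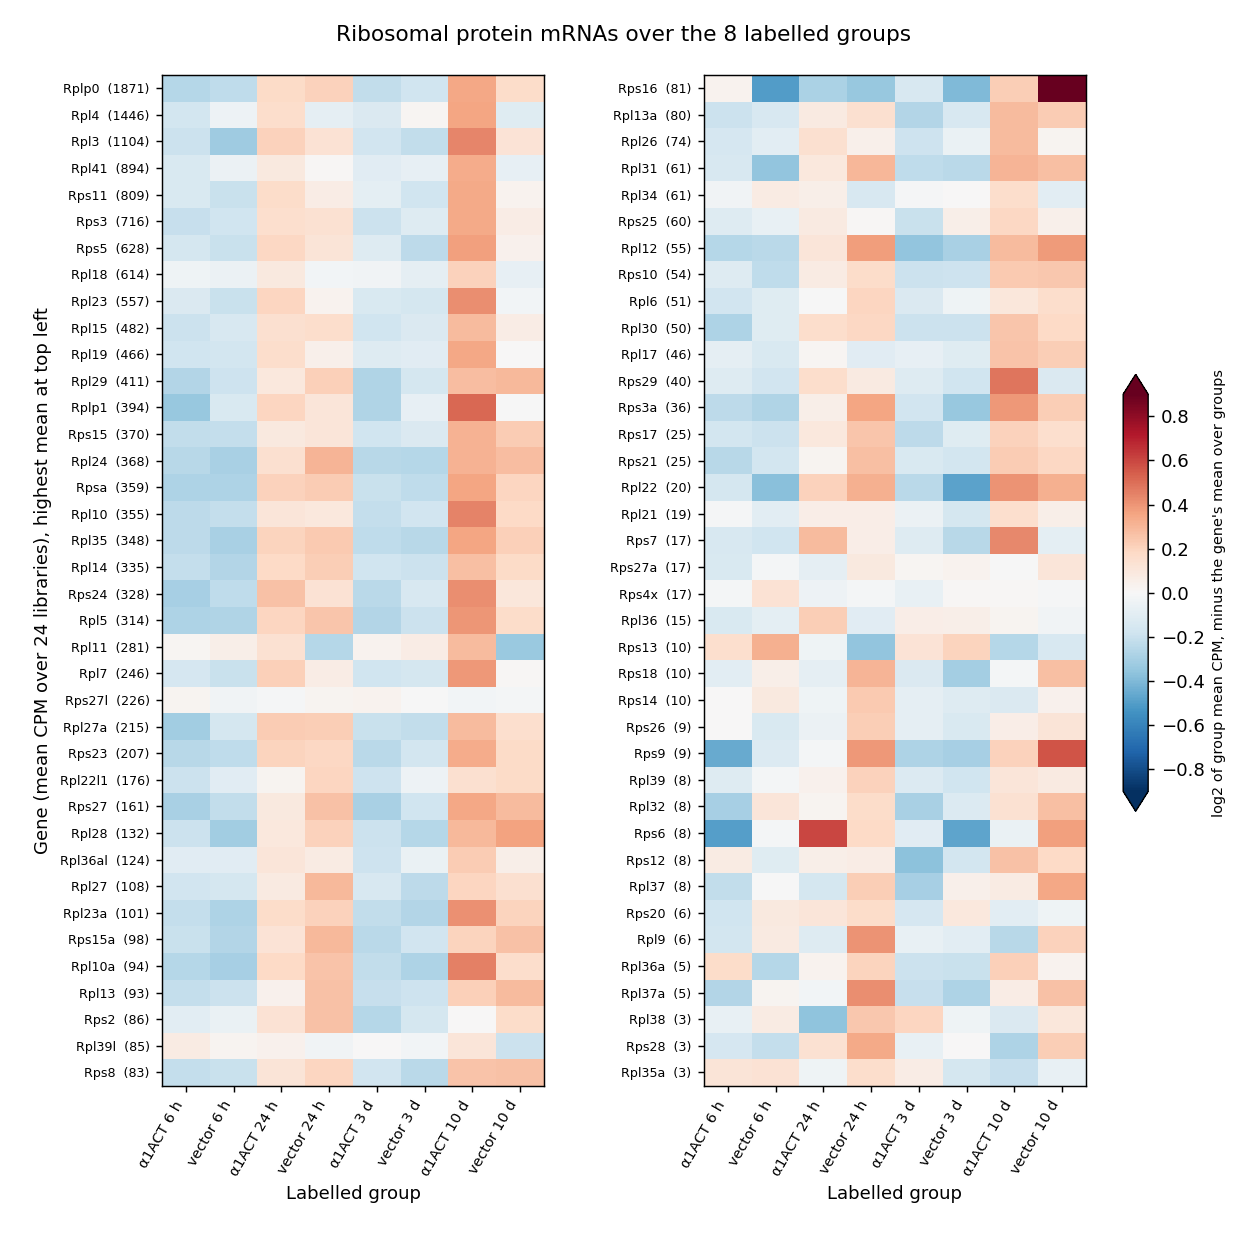
Log2 of the group mean CPM of 76 of the 77 members minus the mean of that member's 8 group values (colour), with members in rows by mean CPM and the 8 labelled groups in columns, α1ACT left of vector at each time. The 24 h and 10 d columns are above the row mean for most well-counted members. α1ACT at 10 d is the highest group of 44 of the 77, and of 1531 of the 9994 genes tested.

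The P stalk is the flexible arm of the large subunit that recruits the elongation factors. Its base is Rplp0 and Rpl12, and its tip is made of Rplp1 and Rplp2. In α1ACT, Rplp0 had 1489, 1605 and 1549.6 CPM at 6 h, 2096, 1943 and 2212 at 24 h, 1554, 1653 and 1536 at 3 d, and 2350.5, 2317 and 2375 at 10 d. In vector it had 1552, 1575 and 1608 CPM at 6 h, 1963, 2368 and 2066 at 24 h, 1674, 1593 and 1622 at 3 d, and 2223, 1943 and 2042 at 10 d. The 24 h and 10 d libraries were all above the 6 h and 3 d libraries of their line. The log2 fold change at 24 h against 6 h was 0.43 ± 0.06 (adjusted p = 2.66e-06) in α1ACT and 0.43 ± 0.06 (adjusted p = 7.56e-07) in vector, and at 10 d against 3 d 0.57 ± 0.06 (adjusted p = 3.74e-08) in α1ACT and 0.34 ± 0.06 (adjusted p = 1.93e-05) in vector (± SE here and below). Where 2 values of a line follow each other below, the first is that of 24 h against 6 h and the second that of 10 d against 3 d. Rpl12 rose in the same 4 comparisons, by 0.37 and 0.64 in α1ACT and by 0.61 and 0.67 in vector, the rise at 24 h in α1ACT being lost without α1ACT 24 h replicate 1 (adjusted p = 0.0520 with edgeR).

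Rplp1, the acidic tip protein, followed another course. In α1ACT it had 278, 331 and 311 CPM at 6 h, 421, 433 and 477 at 24 h, 313, 335 and 318 at 3 d, and 533, 542 and 589 at 10 d. In vector it had 369, 346 and 345 CPM at 6 h, 380.1, 481 and 394 at 24 h, 351, 373 and 379 at 3 d, and 405, 357 and 398 at 10 d. In α1ACT all 24 h and 10 d libraries were above all 6 h and 3 d libraries, whereas the vector libraries of 10 d and 3 d overlapped. Rplp1 had the largest rise of any member at 10 d against 3 d in α1ACT, 0.79 ± 0.07 (adjusted p = 6.54e-09), against 0.07 ± 0.07 (adjusted p = 0.398) in vector. At 24 h against 6 h it rose by 0.53 in α1ACT and by 0.24 in vector, and without vector 24 h replicate 2 the vector rise was no longer called (adjusted p = 0.105 with edgeR).

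Rpl5 and Rpl11 enter the ribosome together with 5S ribosomal RNA and are the 2 members best known to bind Mdm2. Their counts parted in the vector line. Rpl5 had 244, 268 and 254 CPM at 6 h, 362, 324 and 374 at 24 h, 248, 277 and 247 at 3 d, and 409, 409 and 403 at 10 d in α1ACT. In vector it had 248, 269 and 250.5 CPM at 6 h, 331, 413 and 355 at 24 h, 269, 263 and 279.7 at 3 d, and 378, 322 and 339.9 at 10 d. Rpl5 rose in both lines, by 0.47 in α1ACT and 0.52 in vector at 24 h against 6 h, and by 0.66 in α1ACT and 0.36 in vector at 10 d against 3 d.

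Rpl11 had 269, 299.8 and 276 CPM at 6 h, 300.1, 308 and 309 at 24 h, 261, 304 and 289 at 3 d, and 326, 322 and 369 at 10 d in α1ACT. In vector it had 278, 309 and 279.9 CPM at 6 h, 211, 261 and 227 at 24 h, 292, 298 and 285 at 3 d, and 232, 205 and 227 at 10 d. All vector libraries of 24 h and 10 d were below all vector libraries of 6 h and 3 d. In vector, Rpl11 fell at 24 h against 6 h, -0.31 ± 0.07 (adjusted p = 0.00042), and at 10 d against 3 d, -0.40 ± 0.07 (adjusted p = 2.5e-05), the only member that fell in both. In α1ACT it was 0.12 ± 0.07 (adjusted p = 0.18) at 24 h against 6 h, which was not called, and rose at 10 d against 3 d, 0.25 ± 0.07 (adjusted p = 0.00503).

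Rpl4 reaches with a long arm into the exit tunnel of the large subunit. In α1ACT it had 1253, 1314 and 1271 CPM at 6 h, 1610.3, 1517 and 1692 at 24 h, 1277, 1338 and 1314 at 3 d, and 1805, 1798 and 1902 at 10 d. In vector it had 1338, 1434 and 1409.6 CPM at 6 h, 1256, 1506 and 1309.7 at 24 h, 1431, 1459.7 and 1459.8 at 3 d, and 1434, 1240.2 and 1329 at 10 d. In α1ACT the 24 h and 10 d libraries lay above all 6 h and 3 d libraries, and in vector they overlapped. It rose in α1ACT, by 0.33 at 24 h against 6 h and 0.49 at 10 d against 3 d, and was not called in vector, at -0.04 ± 0.06 (adjusted p = 0.591) and -0.12 ± 0.06 (adjusted p = 0.0746). Rpl3, beside the peptidyl transferase centre, rose in all 4 comparisons, by 0.40 and 0.62 in α1ACT and 0.45 and 0.34 in vector.

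Of 5 members listed as joining the ribosome late in its assembly, 4 were called higher in all 4 comparisons and Rps26 in 1. Rpl10, the last protein loaded on the large subunit, rose at 10 d against 3 d by 0.66 in α1ACT and 0.35 in vector. Rpl24 rose there by 0.56 in α1ACT and 0.54 in vector, and Rpl29 by 0.55 in α1ACT and 0.45 in vector. All 3 also rose at 24 h against 6 h in both lines, by 0.59 for Rpl24 in vector. Rps10, at the mRNA entry of the small subunit, rose at 10 d against 3 d by 0.43 in α1ACT and 0.43 in vector. At 24 h in α1ACT its rise of 0.19 was lost without any 1 of the 6 libraries (adjusted p 0.0508 to 0.224). Rps26, at the mRNA exit, was called only in vector at 24 h against 6 h, 0.36 ± 0.14 (adjusted p = 0.0327), a call lost without vector 6 h replicate 1 or 2 or vector 24 h replicate 1 or 2 (adjusted p 0.0755 to 0.125).

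In the small subunit, Rps3 at the mRNA entry rose in all 4 comparisons, by 0.36 and 0.54 in α1ACT and 0.31 and 0.19 in vector. Rps23, which borders the decoding site, rose by 0.45 and 0.58 in α1ACT and 0.41 and 0.34 in vector. Rpsa, also known as the laminin receptor, rose by 0.49 and 0.56 in α1ACT and 0.51 and 0.42 in vector. Rps2, Rps14, Rps20 and the ubiquitin fusion Rps27a were not called in any of the 4, with log2 fold changes of -0.13 to 0.32 and with means of 85.7 CPM for Rps2, 16.7 CPM for Rps27a, 9.69 CPM for Rps14 and 6.42 CPM for Rps20. Rps13 fell in vector at 24 h against 6 h, -0.69 ± 0.15 (adjusted p = 0.000316).

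Rps6, the substrate of the S6 kinases, was counted at 7.47, 12.7 and 14.5 CPM in α1ACT at 24 h and 4.35, 5.91 and 5.90 CPM in α1ACT at 6 h. Its log2 fold change there, 1.10 ± 0.42 (adjusted p = 0.0349), was the largest of any member, on few counts. The call was lost without any 1 of 5 of the 6 libraries (adjusted p 0.0616 to 0.138) and with DESeq2 (adjusted p = 0.0824).

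**Figure D3:**
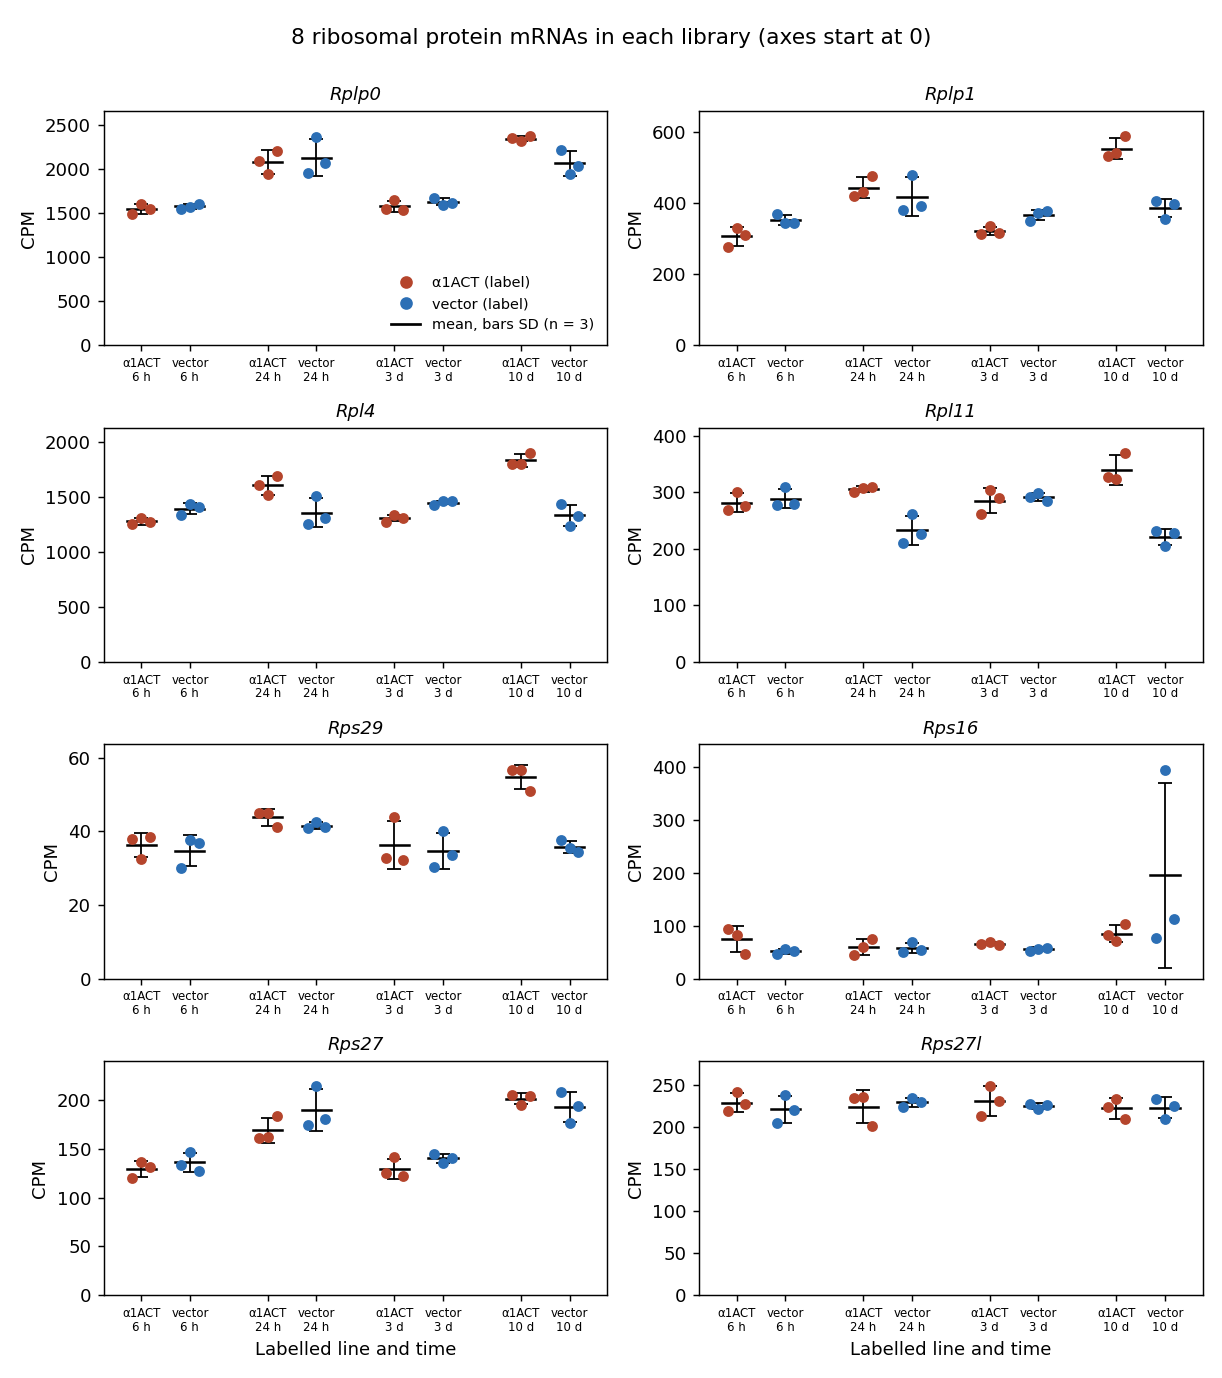
CPM per library of 8 ribosomal protein genes (a panel each, vertical axis in CPM) at the 4 labelled times, α1ACT left of vector. Rplp0 and Rps27 are higher at 24 h and 10 d in both lines, Rpl4 and Rplp1 chiefly in α1ACT, Rpl11 is lower in vector at 24 h and 10 d, Rps27l stays between 221 and 231 CPM in group means, and Rps16 has 1 vector library at 396 CPM.

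Rps27 and Rps27l are paralogs that take the same place in the small subunit. Rps27 had 119.9, 136 and 132 CPM at 6 h, 162, 162 and 184 at 24 h, 126, 142 and 122 at 3 d, and 206, 195 and 204 at 10 d in α1ACT. In vector it had 134, 147 and 128 CPM at 6 h, 175, 214 and 181 at 24 h, 145, 135 and 141 at 3 d, and 208, 177 and 194 at 10 d. It rose in all 4 comparisons, by 0.39 and 0.63 in α1ACT and 0.48 and 0.46 in vector. Rps27l had group means of 221 to 231 CPM and was not called in any comparison. Its group means spanned 0.0616 on the log2 scale, the narrowest range of the 77 members, of which the next was Rps4x with 0.190. The window of Rps27 holds a run of 9 pyrimidines and that of Rps27l none.

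Rpl22 and Rpl22l1 are another pair of paralogs. Rpl22 rose in all 4 comparisons, by 0.37 and 0.65 in α1ACT and 0.69 and 0.80 in vector. In α1ACT at 24 h that call was lost without α1ACT 6 h replicate 2 or α1ACT 24 h replicate 1 or 3 (adjusted p 0.0632 to 0.174). Rpl22l1, which Rpl22 represses in mouse, rose by 0.21 and 0.33 in α1ACT and 0.29 and 0.22 in vector. Single libraries ended 3 of these calls, in α1ACT at 24 h (adjusted p 0.0533 to 0.212 without α1ACT 6 h replicate 1 or 3 or any α1ACT 24 h replicate), in vector at 24 h (0.0737 without vector 24 h replicate 2) and in vector at 10 d (0.0562 to 0.132 without vector 3 d replicate 1 or vector 10 d replicate 1 or 3). Rpl39 was not called in any comparison, and its copy Rpl39l, known from the testis, was higher in α1ACT than in vector at 10 d, 0.31 ± 0.08 (adjusted p = 0.00267), with 88.3, 99.7 and 85.9 CPM against 78.7, 68.6 and 73.9 CPM. The sequences of such copies are close, so reads may be split between them.

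**Figure D4:**
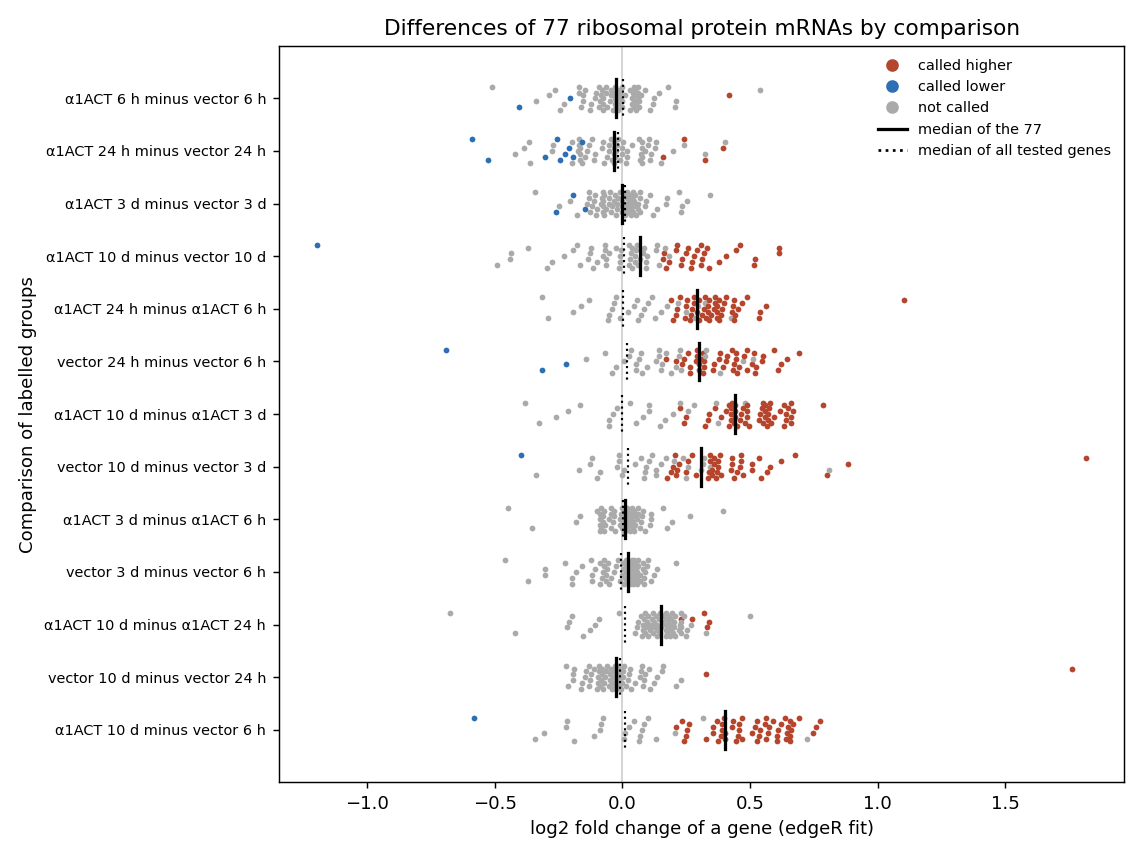
Log2 fold change of each of the 77 members (points) in the 13 comparisons of groups, red where higher and blue where lower at an adjusted p under 0.05 and grey elsewhere, with the median of the members (solid line) and of all tested genes (dotted line). The member median lies at 0.29 to 0.44 in the 4 comparisons of 24 h with 6 h and of 10 d with 3 d, and near 0 in the line comparisons at 6 h, 24 h and 3 d.

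Between the lines, few ribosomal proteins were called at 6 h, 24 h and 3 d. By the file names these are P at 24H against 6H, P at 10D against 3D and Q11 at 24H against 6H. At 6 h, 1 member was higher and 2 were lower in α1ACT, against 20.5% and 21.2% of all genes. With library sizes alone in place of TMM factors, 3 members were called higher and 0 lower at 6 h. Rpl32 and Rplp1, lower with TMM factors, stayed negative there at -0.36 and -0.16. They were no longer called (adjusted p = 0.0599 and 0.0670 with edgeR). At 24 h, 4 were higher and 9 lower, against 26.6% and 28.8%, and with RLE factors 6 were higher and 8 lower. With only the groups compared 5 were higher and 5 lower, and leaving out 1 library gave 2 to 14 higher and 0 to 12 lower, so neither direction prevailed at 24 h under all settings. At 3 d, 0 were higher and 3 lower, against 19.9% and 19.4% of all genes. The member medians were -0.02, -0.03 and 0.00. At 10 d, where the names give Q11 at 10D against 3D, 28 members were higher in α1ACT and 1 was lower, against 29.5% and 29.4% of all genes, with a median of 0.07. The share of members called higher at 10 d is thus near that of all genes, and the share called lower is far below it. Of the 22 members at 300 CPM or more, 17 were higher at 10 d, where 42.0% of genes at that level were, and of the 15 members under 10 CPM none was called higher. Large subunit members made up 20 of the 28, and 46 of all 77 members.

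The few calls at 6 h rested on single libraries. Rpl36a, a large subunit protein, was higher in α1ACT, 0.42 ± 0.16 (adjusted p = 0.0391), Rpl32 was lower, -0.40 ± 0.15 (adjusted p = 0.0375), and Rplp1 was lower, -0.20 ± 0.07 (adjusted p = 0.0308). Leaving out single libraries in turn left 0 or 1 of the 3 calls, and DESeq2 and a fit with no filter on low counts left 1 each. The call of Rpl36a was lost without any 1 library but vector replicate 1 (adjusted p 0.0599 to 0.160), that of Rpl32 without any but vector replicate 3 (0.0628 to 0.167) and that of Rplp1 without any but α1ACT replicate 2 (0.0538 to 0.136).

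At 3 d Rplp1 was again lower in α1ACT, -0.19 ± 0.07 (adjusted p = 0.0431), and Rpl4 was lower too, -0.15 ± 0.06 (adjusted p = 0.0477). Rps25, which internal ribosome entry needs in human cells and yeast, had 48.6, 55.8 and 51.5 CPM in α1ACT and 62.9, 63.6 and 59.8 CPM in vector, with no overlap, -0.26 ± 0.08 (adjusted p = 0.0083). The call of Rps25 held without any 1 library. Those of Rplp1 and Rpl4 were lost without vector 3 d replicate 2 or 3 or α1ACT 3 d replicate 1 or 3 (adjusted p 0.0824 to 0.124 for Rplp1 and 0.0655 to 0.103 for Rpl4), and that of Rpl4 also without α1ACT 3 d replicate 2 (0.0557).

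At 24 h Rpl11 and Rpl4 were higher in α1ACT than in vector, by 0.40 ± 0.07 (adjusted p = 3.34e-05) and 0.24 ± 0.06 (adjusted p = 0.000937), with no overlap of the lines and with the call kept without any 1 library. Rpl36 was also higher, 0.32 ± 0.12 (adjusted p = 0.0269), as was Rpl23 at the face between the subunits, 0.16 ± 0.06 (adjusted p = 0.0359), whose libraries overlapped. Rps3a, a protein of the small subunit near the mRNA exit, had 36.3, 39.5 and 34.7 CPM in α1ACT and 39.8, 51.5 and 45.1 CPM in vector and was lower, -0.30 ± 0.09 (adjusted p = 0.0059). Rpl38, which favours the translation of Hox mRNAs in mouse, was lower, -0.59 ± 0.23 (adjusted p = 0.0321), as was Rpl9, -0.53 ± 0.21 (adjusted p = 0.0392), both on few counts. Rpl12, -0.26 ± 0.10 (adjusted p = 0.0252), and Rps21, -0.24 ± 0.09 (adjusted p = 0.032), were lower too. Apart from Rpl11 and Rpl4, each of these calls was lost without at least 1 library. Without vector 24 h replicate 2 the adjusted p was 0.0588 for Rps3a, 0.192 for Rpl12, 0.0861 for Rps21, 0.0950 for Rpl38 and 0.0826 for Rpl9, and without vector 24 h replicate 1 it was 0.124 for Rpl36, 0.167 for Rpl23, 0.107 for Rpl38 and 0.0574 for Rpl9. Without vector 24 h replicate 3 it was 0.0709 for Rpl36, 0.105 for Rpl23, 0.0806 for Rpl9 and 0.0843 for Rps21. Without α1ACT 24 h replicate 1 it was 0.0665 for Rpl36, 0.0625 for Rpl23, 0.227 for Rpl38 and 0.124 for Rpl9. Without α1ACT 24 h replicate 2 it was 0.0614 for Rpl36, 0.247 for Rpl12 and 0.105 for Rps21, and without α1ACT 24 h replicate 3 it was 0.113 for Rpl23, 0.115 for Rpl9 and 0.0871 for Rps21. Leaving out 1 library moved the count of calls between 5 (without α1ACT 24 h replicate 1) and 16 (without α1ACT 24 h replicate 3). The balance of directions rested on vector 24 h replicate 2, without which 14 members were higher and 0 lower. Without vector 24 h replicate 1, 2 were higher and 12 lower.

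At 10 d the members most raised in α1ACT over vector were Rpl11, Rps29, Rplp1, Rps7 and Rpl4. Rpl11 had 326, 322 and 369 CPM in α1ACT and 232, 205 and 227 CPM in vector. The lines did not overlap, and the log2 fold change was 0.62 ± 0.07 (adjusted p = 4.72e-08), a 1.53-fold difference. Rps29, a zinc-binding protein of the small subunit that is mutated in some Diamond-Blackfan anaemia, had 56.8, 56.7 and 50.9 CPM in α1ACT and 37.6, 35.6 and 34.4 CPM in vector, 0.61 ± 0.10 (adjusted p = 1.78e-05). For Rplp1 the difference was 0.52 ± 0.07 (adjusted p = 1.43e-06) and for Rpl4 0.46 ± 0.06 (adjusted p = 2.42e-07), again with no overlap. Rps7, another small subunit protein that binds Mdm2, had 21.1, 21.4 and 24.5 CPM in α1ACT and 16.7, 13.5 and 16.5 CPM in vector, 0.51 ± 0.11 (adjusted p = 0.000236). Rpl23 was higher by 0.45. All these calls held without any 1 library and with DESeq2.

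Smaller differences at 10 d included Rpl41, the shortest ribosomal protein, which had 1099, 1117 and 1152 CPM in α1ACT and 936, 761 and 845 CPM in vector, 0.41 ± 0.07 (adjusted p = 3.74e-05). Rps24, another Diamond-Blackfan protein, had 425, 434 and 436 CPM in α1ACT and 374, 312 and 356 CPM in vector, 0.31 ± 0.07 (adjusted p = 0.000591). Neither gene's libraries overlapped between the lines. Rpl7 was higher by 0.38, Rpl3 by 0.32, Rps3 by 0.27, Rpl10 by 0.27 and Rpl5 by 0.23. Rplp0 was higher by 0.18, which was lost without vector 10 d replicate 2 (adjusted p = 0.0711), as were the calls of Rps23 (0.168) and Rpsa (0.302). Those of Rps23 and Rpsa were also lost without vector 10 d replicate 3 (0.0586 for Rps23 and 0.0648 for Rpsa) or α1ACT 10 d replicate 3 (0.160 for each), and that of Rpsa without α1ACT 10 d replicate 1 (0.0897). Without vector 10 d replicate 2, 22 members were called higher, against 28 with all libraries.

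Rps16, whose tail reaches the P site, was the 1 member lower in α1ACT at 10 d, and it rested on vector 10 d replicate 2. It had 82.4, 70.6 and 103 CPM in α1ACT and 77.1, 396 and 113 CPM in vector, so the lines overlapped. The log2 fold change was -1.19 ± 0.35 (adjusted p = 0.00499), and without vector 10 d replicate 2 it was -0.16 (adjusted p = 0.522). The calls of Rps16 in vector at 10 d against 3 d, 1.82, and against 24 h, 1.76, include the same library.

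The difference between the lines at 24 h and 10 d was then set against that at 6 h and 3 d, with the mean of each pair of times, in 1 contrast. These pairs of times were chosen with earlier results of these data known. The p-values of the contrast are thus not those of a planned test. The contrast was higher for 19 members and lower for 2, against 30.7% and 33.7% of all genes. The median was 0.06. The 5 with the smallest p were Rpl4, 0.49 ± 0.06 (adjusted p = 6.9e-08), Rpl11, 0.54 ± 0.07 (adjusted p = 2.73e-07), Rplp1, 0.50 ± 0.07 (adjusted p = 1.98e-06), Rps24, 0.31 ± 0.07 (adjusted p = 0.000632), and Rpl41, 0.30 ± 0.07 (adjusted p = 0.000999), all of which were called with any 1 library left out. For Rpl4 and Rplp1 the difference between the lines was negative at 6 h and 3 d and positive at 24 h and 10 d. With library sizes alone in place of TMM factors the split was 14 higher and 7 lower. The 2 lower were Rps16, -0.96, and Rpl28, -0.18. These line and time comparisons share groups, so their values stand side by side and are no independent evidence of each other.

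No member was called at 3 d against 6 h in either line, against 0.800% of all genes higher and 0.260% lower in α1ACT and 1.14% higher and 0.330% lower in vector. DESeq2 called 0 members in both lines. By the file names these comparisons are Q11 against P at 24H and at 6H. At 10 d against 24 h, where the names give Q11 against P at 10D and at 3D, 5 members were higher and 0 lower in α1ACT, against 2.21% and 2.41% of all genes. In vector 2 were higher and 0 lower, against 4.29% and 3.15%. The members' median in α1ACT was 0.15, and that of all tested genes was 0.01.

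The 5 members higher in α1ACT at 10 d than at 24 h included Rps3a, 0.34 ± 0.09 (adjusted p = 0.0323), Rpl10, 0.33 ± 0.07 (adjusted p = 0.0125), Rplp1, 0.32 ± 0.07 (adjusted p = 0.0157), and Rpl23, 0.23 ± 0.06 (adjusted p = 0.0391). Rpl10 had 470.1, 453 and 509 CPM in α1ACT at 10 d and 379, 352 and 406 CPM at 24 h, with no overlap. Single libraries moved this count between 0 and 14. It was 0 without α1ACT 24 h replicate 2, α1ACT 10 d replicate 1 or α1ACT 10 d replicate 3, 1 without α1ACT 24 h replicate 1 and 14 without α1ACT 24 h replicate 3. In vector the 2 were Rpl17, 0.33 ± 0.08 (adjusted p = 0.0184), and Rps16, and 1 was left without vector 24 h replicate 3 or vector 10 d replicate 2.

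The comparison of α1ACT at 10 d with vector at 6 h, which mixes line and time, was added after seeing the data, because these groups carry the same line and time in labels and file names. In it 54 of 77 members were higher and 1 was lower, against 31.2% and 30.0% of all genes, with a median of 0.40. Of the 52 members with a mean of at least 30 CPM, a subset also added after seeing the data, all 52 had a positive log2 fold change and 47 were called higher. Rplp0 had 2350.5, 2317 and 2375 CPM in α1ACT at 10 d and 1552, 1575 and 1608 CPM in vector at 6 h, 0.57 ± 0.06 (adjusted p = 1.13e-08). Rpl22 was higher by 0.77, Rpl3 by 0.76 and Rpl10a by 0.75. Rpl11 was higher by 0.23 ± 0.07 (adjusted p = 0.00622), a call lost without α1ACT 10 d replicate 3 (adjusted p = 0.0601). Rps13 was lower, -0.58.

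Other genes of ribosome supply and translation are given by list, after the shares of all tested genes. At 24 h against 6 h, 21.7% of all tested genes were higher and 22.4% lower in α1ACT, and 31.6% and 29.9% in vector. At 10 d against 3 d the shares were 21.8% and 22.8% in α1ACT and 33.2% and 31.0% in vector. Of 21 other mRNAs known to carry a TOP, 12 were higher and 0 lower at 24 h against 6 h in α1ACT, 14 and 0 at 10 d against 3 d in α1ACT, 9 and 5 at 24 h against 6 h in vector, and 10 and 5 at 10 d against 3 d in vector. They had median log2 fold changes of 0.18 and 0.32 in α1ACT and 0.20 and 0.15 in vector. Npm1, a nucleolar chaperone of ribosome assembly, rose by 0.58 and 0.65 in α1ACT. Eif4b, which helps the helicase of initiation, rose by 0.96 and 1.10 in vector. Hnrnpa1, an RNA-binding protein, fell in vector, with log2 fold changes of -1.10 and -0.92. At 10 d this list was higher in α1ACT than in vector for 10 and lower for 4, against 29.5% and 29.4% of all genes. Eef1b2 of the elongation factor was higher by 0.66.

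Between the times, genes that build ribosomes did not move as a block. Beside the time counts below stand 21.7% and 21.8% of all genes higher and 22.4% and 22.8% lower in α1ACT. In vector these shares were 31.6% and 33.2% higher and 29.9% and 31.0% lower. Of 83 tested ribosome biogenesis genes, 20 were higher and 15 lower at 24 h against 6 h in α1ACT, 14 and 32 in vector, and at 10 d against 3 d 16 and 18 in α1ACT and 19 and 35 in vector. They had median log2 fold changes of 0.00 and 0.03 in α1ACT and -0.09 and -0.08 in vector. Fbl, the methylase of ribosomal RNA, fell in vector, with -0.96 and -1.01, and was higher in α1ACT at 10 d by 0.90. Of 67 mitochondrial ribosomal proteins, 20 and 18 were higher and 3 and 5 lower in α1ACT at 24 h and 10 d. In vector, 21 and 16 were higher and 23 and 28 lower. This list had median log2 fold changes of 0.10 and 0.08 in α1ACT and -0.06 and -0.06 in vector. Of 43 translation factors, 16 and 19 were higher and 6 and 4 lower in α1ACT. In vector, 12 and 15 were higher and 18 and 17 lower. Their median log2 fold changes were 0.09 and 0.14 in α1ACT and -0.11 and 0.03 in vector. Between the lines at 6 h, 5 of the 83 biogenesis genes were higher and 31 lower in α1ACT, against 20.5% and 21.2% of all genes. At 3 d, 5 were higher and 41 lower, against 19.9% and 19.4%. At 24 h, 18 were higher and 20 lower, against 26.6% and 28.8%. At 10 d, 20 were higher and 31 lower, against 29.5% and 29.4%.

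Between the times, the 33 tested regulators of TOP mRNAs and growth did not move as a block. At 24 h against 6 h and at 10 d against 3 d, median log2 fold changes were -0.13 and -0.16 in α1ACT. In vector they were -0.03 and 0.06. Those named had the smallest p in their line. Eif4ebp1, which holds back cap-dependent initiation when mTOR is off, rose by 2.00 and 1.94 in α1ACT and 2.01 and 2.11 in vector. Sesn2, a leucine sensor that restrains mTOR, rose by 1.54 and 1.47 in α1ACT and 2.60 and 2.72 in vector. Ddit4, another mTOR inhibitor, rose by 1.59 and 1.50 in α1ACT and 2.55 and 2.88 in vector. Myc, which drives ribosome production, rose by 3.51 and 3.35 in vector and was lower in α1ACT than in vector at 10 d, -2.10. Tsc2, part of the complex that restrains mTOR, fell in α1ACT, with -0.66 and -0.59. In all, of the 33 regulators 9 and 7 were higher and 14 and 12 lower in α1ACT, and 9 and 12 higher and 10 and 11 lower in vector. Of all tested genes, 21.7% and 21.8% were higher and 22.4% and 22.8% lower in α1ACT. In vector the shares were 31.6% and 33.2% higher and 29.9% and 31.0% lower. Of 15 genes of ribosomal protein surveillance, 2 and 4 were higher and 6 and 6 lower in α1ACT, and 9 and 8 higher and 2 and 2 lower in vector. Of 15 genes that rescue stalled ribosomes, 6 and 2 were higher and 3 and 2 lower in α1ACT, and 4 and 5 higher and 5 and 5 lower in vector. Gtpbp2 of that list rose by 2.39 and 2.71 in vector. Between the lines at 24 h, 8 of the 33 regulators were higher and 19 lower in α1ACT, against 26.6% and 28.8% of all genes. At 10 d, 5 were higher and 19 lower, against 29.5% and 29.4%. At 6 h, 5 were higher and 9 lower, against 20.5% and 21.2%. At 3 d, 8 were higher and 8 lower, against 19.9% and 19.4%. Of the 15 surveillance genes, 1 was higher and 8 lower at 24 h, and 3 and 10 at 10 d. At 6 h, 3 of these were higher and 6 lower, and at 3 d 4 and 4.

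Cell division genes moved with the line and time as well. Of 23, 23 were lower at 24 h against 6 h and 23 at 10 d against 3 d in vector, with 0 higher. In α1ACT 8 were higher and 3 lower at 24 h, and 0 higher and 17 lower at 10 d. Of all genes, 29.9% and 31.0% were lower in vector, and 21.7% and 21.8% higher and 22.4% and 22.8% lower in α1ACT. Between the lines 23 were higher in α1ACT at 24 h and 22 at 10 d, against 26.6% and 29.5% of all genes. At 6 h, 0 were higher and 14 lower in α1ACT, against 20.5% and 21.2% of all genes. At 3 d, 4 were higher and 6 lower, against 19.9% and 19.4%. The part of cell division in the ribosomal protein counts was not tested.

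**Figure D5:**
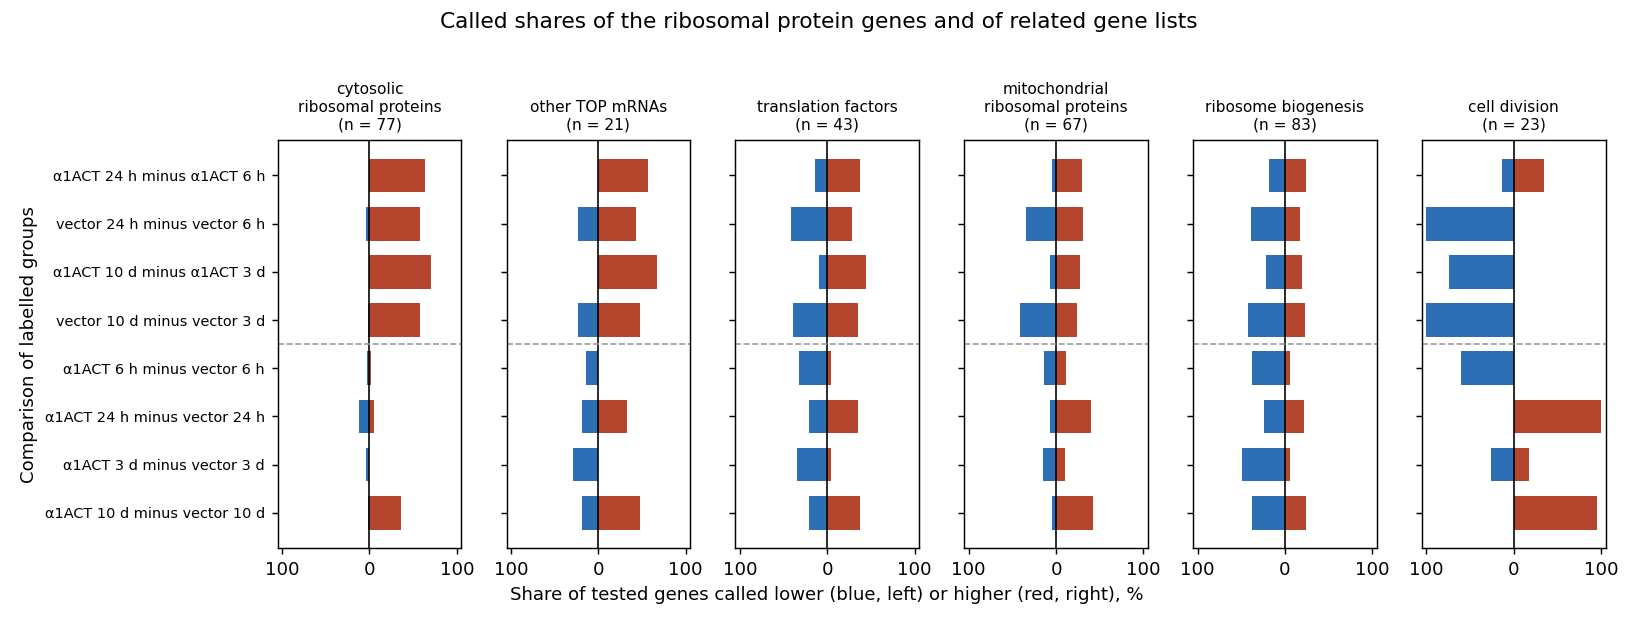
Percent of the tested genes of each list called higher (red, to the right) or lower (blue, to the left) in 4 time comparisons and 4 line comparisons, for 77 ribosomal proteins, 21 other TOP mRNAs, 43 translation factors, 67 mitochondrial ribosomal proteins, 83 ribosome biogenesis genes and 23 cell division genes. Of the ribosomal proteins, 58.4% to 70.1% are called higher in the 4 time comparisons, while cell division genes are all lower in those of vector.

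Members with and without the pyrimidine run were set side by side. The 38 with a run of at least 7 had median log2 fold changes of 0.29 at 24 h against 6 h and 0.49 at 10 d against 3 d in α1ACT, and of 0.36 and 0.35 in vector. The 23 without had 0.21 and 0.37 in α1ACT and 0.19 and 0.22 in vector. This is a description of 61 members with 1 promoter class each, and the part of the run in the difference was not tested.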

How the data were processed

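Total RNA of 24 PC12 libraries was sequenced from a stranded kit after depletion of ribosomal RNA, as pairs of 100 bases in 3 lanes. The authors deposited raw read counts, 1 table for each library with a whole number for every gene symbol and 5 summary lines at the end. The tools named, per the submitters' processing notes, include TopHat2 2.0.10 and HTSeq 0.5.4p5, beside Picard 1.117, FastQC 0.11.2 and edgeR, with rn5 as the build. Their roles, the annotation, the strand setting and the handling of duplicates were not stated, so antisense overlap cannot be resolved and reads of near-identical copies may be split or lost.

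Groups came from the labels. Replicates are called biological, but separate cultures are not stated, and a p-value here covers only the spread among these libraries, which may be technical. Replicate pairs differed beyond sampling noise (chi-square over its degrees of freedom 2.00 to 11.7), and none was treated as a repeat deposit. The summary lines were left out. edgeR 4.0.16 in R 4.3.3 was run on the counts with TMM factors (0.981 to 1.02), filterByExpr (minimum count 10, minimum total 15; 9994 genes) and 1 quasi-likelihood fit of all 24 libraries (16 residual degrees of freedom, common biological coefficient of variation 5.75%). Benjamini-Hochberg adjustment ran over these genes, with a threshold of 0.05. "Higher", "lower", "rose" and "fell" mean past it. CPM used TMM-scaled library sizes, with a prior count of 2 on the log2 scale of figures and spreads. A floor of 3 counts was 0.207 to 0.346 CPM, and it and the Wilson intervals cover counting error only. Alternatives were RLE factors, library sizes alone, no filter, only the groups compared, a replicate block, DESeq2 1.42.0 and each library left out. The fit was tested on simulated data.

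Members, gene lists and the pairs of times in the contrast of line differences were chosen with earlier results of these data known. Named members were the 5 largest rises and falls past the threshold in each line comparison, the 5 with the smallest p in the contrast of line differences, and members with a listed role. Of other lists, genes were named among the 4 with the smallest p in the comparison. Other members named were chosen after their values were seen. Of the 83 symbols 81 matched RefSeq (GRCr8), which gave sequences only. Every correlation between the deviations of same-numbered replicates was over 0.1 only between the lines at 3 d (0.124, 0.318 and 0.139). There the replicate block left the calls at 0 higher and 3 lower. Between the lines at 6 h the correlations were 0.164, 0.342 and 0.0980, and the lowest of any comparison was -0.0319, between the lines at 10 d. Single values of 1 member and of 1 listed gene are not reported here, though both are counted.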

Additional observations from a re-analysis of the deposited data

Results flagged for a closer look

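The difference between α1ACT and vector at labelled 24 h and 10 d was set against that at labelled 6 h and 3 d. It was tested as 1 contrast in edgeR over all 24 libraries. The pairs of times were chosen with earlier results of these data known. Of 77 members, 19 (24.7%) were higher and 2 lower, against 30.7% and 33.7% of all genes. The 5 members with the smallest p are given here. Rpl11 had a log2 difference of 0.54 ± 0.07 (adjusted p = 2.73e-07). Its differences between the lines were 0.40 at 24 h and 0.62 at 10 d, with -0.04 at 6 h and -0.03 at 3 d. Rplp1 had 0.50 ± 0.07 (adjusted p = 1.98e-06), with 0.09 and 0.52 at 24 h and 10 d, against -0.20 and -0.19 at 6 h and 3 d. Rpl4 had 0.49 ± 0.06 (adjusted p = 6.9e-08), with 0.24 and 0.46 at 24 h and 10 d, against -0.12 and -0.15. Rps24 had 0.31 ± 0.07 (adjusted p = 0.000632) and Rpl41 0.30 ± 0.07 (adjusted p = 0.000999). By the file names the same contrast compares times only, 10D minus 3D against 24H minus 6H.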

How the results depend on the processing

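The counts of called ribosomal proteins in the 4 comparisons of 24 h with 6 h and of 10 d with 3 d, in the lines at 10 d and 24 h and in the contrast of line differences stayed within 1.5 times under the alternatives run other than leaving out a library, where a fit with only the groups compared was not run for the contrast, and no named call changed direction. In the lines at 6 h, 3 members were called, against 1 with no filter on low counts, 1 with DESeq2 and 1 among members with a mean of at least 30 CPM. In the lines at 3 d, 3 were called, against 1 with library sizes alone and 5 with only the groups compared. At 10 d against 24 h, 5 were called in α1ACT, against 13 with no filter, 13 with DESeq2 (74 members with an adjusted p), 3 with only the groups compared and 12 with the replicate block, and in vector 2 were called, against 0 with only the groups compared. The cause was not tested. Leaving out 1 library gave 0 to 1 calls in the lines at 6 h, 5 to 16 at 24 h, 1 to 3 at 3 d and 22 to 30 at 10 d. It gave 39 to 46 at 24 h against 6 h in α1ACT and 41 to 48 in vector, 52 to 55 at 10 d against 3 d in α1ACT and 42 to 46 in vector, 0 to 14 at 10 d against 24 h in α1ACT and 1 to 3 in vector, 51 to 53 for α1ACT at 10 d against vector at 6 h, and 15 to 27 in the contrast of line differences. At 3 d, 1 was left without vector replicate 2 or 3 or α1ACT replicate 1 or 3.

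Of 155 named calls, the replicate block ended 0, RLE factors 1, no filter 4, library sizes alone 10 and DESeq2 12. A fit with only the groups compared, not run for the contrast of line differences, ended 11 calls and kept 133. Other scalings moved the median of all genes by at most 0.0484. Outside the lines at 3 d not every correlation of same-numbered replicates was over 0.1. Yet 18 of 24 libraries correlated best on average with their own number. What same-numbered replicates share is not stated. Few counts limit the members under 10 CPM.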
